A study of Rattus norvegicus with 30 samples.

Results

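The endothelial adhesion molecules that catch leukocytes from the blood were examined in CD31+ cells of the rat lung. They are the 5 genes Sele, Selp, Icam1, Icam2 and Vcam1, picked by their gene symbols alone from the 30562 rows of the deposited table, and all 5 were among the 16171 genes that passed the filter on low counts. Wild-type rats had a Glenn or a sham operation and then ate a vitamin A control, a vitamin A deficient or a vitamin A excess diet, and lung cells were taken 3 weeks after surgery with CD31 microbeads. A Glenn operation joins the superior vena cava to a pulmonary artery, so that the lung on that side receives venous blood from the upper body in place of flow from the heart. The 6 groups are sham control, sham deficient, sham excess, Glenn control, Glenn deficient and Glenn excess, each with 5 libraries. Strain, age and lung side are not given in the sources used here, nor whether each library came from its own animal. The p-values thus measure the spread between these libraries, part of which may be technical.

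Leukocytes leave the blood in steps. The selectins Sele (E-selectin) and Selp (P-selectin) on the endothelium bind sugars on passing cells and make them roll. The immunoglobulin-family molecules Icam1, Icam2 and Vcam1 then bind leukocyte integrins and hold the cells still: Icam1 and Icam2 are ligands of the beta-2 integrins, and Vcam1 of the alpha-4 integrins. Selp protein is stored ready-made beside von Willebrand factor in Weibel-Palade bodies, the secretory granules of endothelium, and platelets carry it too. Inflammatory cytokines induce Sele, Icam1 and Vcam1 through NF-kB, whereas Icam2 is made by resting endothelium. In lung, Icam1 is also found on type 1 alveolar cells, and Vcam1 also on mesenchymal cells.

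Because cytokine induction is a textbook trait of Sele, Icam1 and Vcam1, the 250 bases before their starts are shown for those with a match to an NF-kB-like motif. RefSeq promoters of the GRCr8 assembly were matched by symbol for 3 of the 5 genes, Icam1, Sele and Vcam1. Capitals mark matches on either strand to GGNNNTTCC or to TATAAA. The pattern GGNNNTTCC covers only some forms of the NF-kB site. Each sequence runs 5′ to 3′ along the gene's own strand.
Icam1, chr8:27829595-27829844, plus strand: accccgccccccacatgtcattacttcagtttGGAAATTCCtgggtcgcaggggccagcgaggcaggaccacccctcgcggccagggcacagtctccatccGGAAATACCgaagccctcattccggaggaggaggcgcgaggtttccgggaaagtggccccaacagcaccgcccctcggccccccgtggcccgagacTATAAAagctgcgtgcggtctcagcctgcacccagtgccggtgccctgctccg
Vcam1, chr2:206742784-206743033, minus strand: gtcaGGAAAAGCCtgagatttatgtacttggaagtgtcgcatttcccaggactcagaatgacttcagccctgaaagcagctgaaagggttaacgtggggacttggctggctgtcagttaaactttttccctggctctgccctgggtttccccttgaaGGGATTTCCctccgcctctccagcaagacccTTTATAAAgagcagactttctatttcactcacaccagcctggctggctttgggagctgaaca
Icam1 held GGAAATTCC, which reads as a match on both strands, from -218 to -210 relative to its start, GGAAATACC from -149 to -141 as a match on the other strand, and TATAAA from -53 to -48. Vcam1 held GGAAAAGCC from -246 to -238 on the other strand, GGGATTTCC from -93 to -85, and 2 overlapping TATAAA matches on opposite strands that together made TTTATAAA from -62 to -55. The Sele window held none of these, and no window of the 3 held TGANTCA, the AP-1 motif. Sites outside these 250 bases and other forms of the NF-kB site were not searched. Whether the RefSeq starts are those used in lung was not tested. Of all 33469 promoters of this length, 15.4% held GGNNNTTCC, 12.9% held TATAAA and 6.34% held TGANTCA.

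The libraries held between 22029035 and 77647586 rounded counts in all, with a median of 39968400. Levels below are CPM, counts scaled to a common library total after TMM correction, which say how a gene varies between libraries but, not being divided by length, do not rank the genes against each other. Library numbers fall into series A (22 libraries) and series B (8 libraries: 3 of sham deficient, 2 of Glenn deficient and 3 of Glenn excess). Fits carried a series term, and none for sex, unless another setting is named. Sex was read from Ddx3y, a gene of the Y chromosome. The 13 libraries at 58.7 to 94.6 CPM were taken as male, and the 17 at 0 to 1.65 CPM as female. Every group held both kinds, so the libraries of a group did not all come from the same animal. Libraries also separated on RT1-CE16, a class I histocompatibility gene, with 17 between 21.9 and 44.4 CPM and 13 between 407 and 949 CPM. The high libraries were 3 of sham control, 3 of sham deficient, none of sham excess, 2 of Glenn control, 2 of Glenn deficient and 3 of Glenn excess, and they include every series B library. Endothelial transcripts were present throughout: Pecam1, which encodes CD31, had a median of 1083 CPM and Cdh5, the cadherin of endothelial junctions, 2235 CPM, with neither at 0 in any library. The libraries were not of endothelium alone: the type 2 alveolar gene Sftpc had a median of 21199 CPM. Summed, 8 type 2 markers had medians of 45296 CPM after sham and 32007 CPM after Glenn. For 8 pan-endothelial markers these were 6740 and 5915 CPM.

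After the Glenn operation Selp was higher and Icam2, Icam1 and Vcam1 were lower, as means over the 3 diets, and Sele was not separated from sham. Selp was 2.05-fold higher, Icam2 1.82-fold lower, Vcam1 1.27-fold lower and Icam1 1.22-fold lower in edgeR's quasi-likelihood fit. The group of 5 thus did not move one way: 1 rose, 3 fell and 1 was not called. With 4 of 5 called at an adjusted p under 0.05, the share has to be read against 48.2% of all genes tested that were called in this comparison. In bulk RNA, fewer cells that make a transcript and less transcript per cell cannot be told apart.

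**Figure D1:**
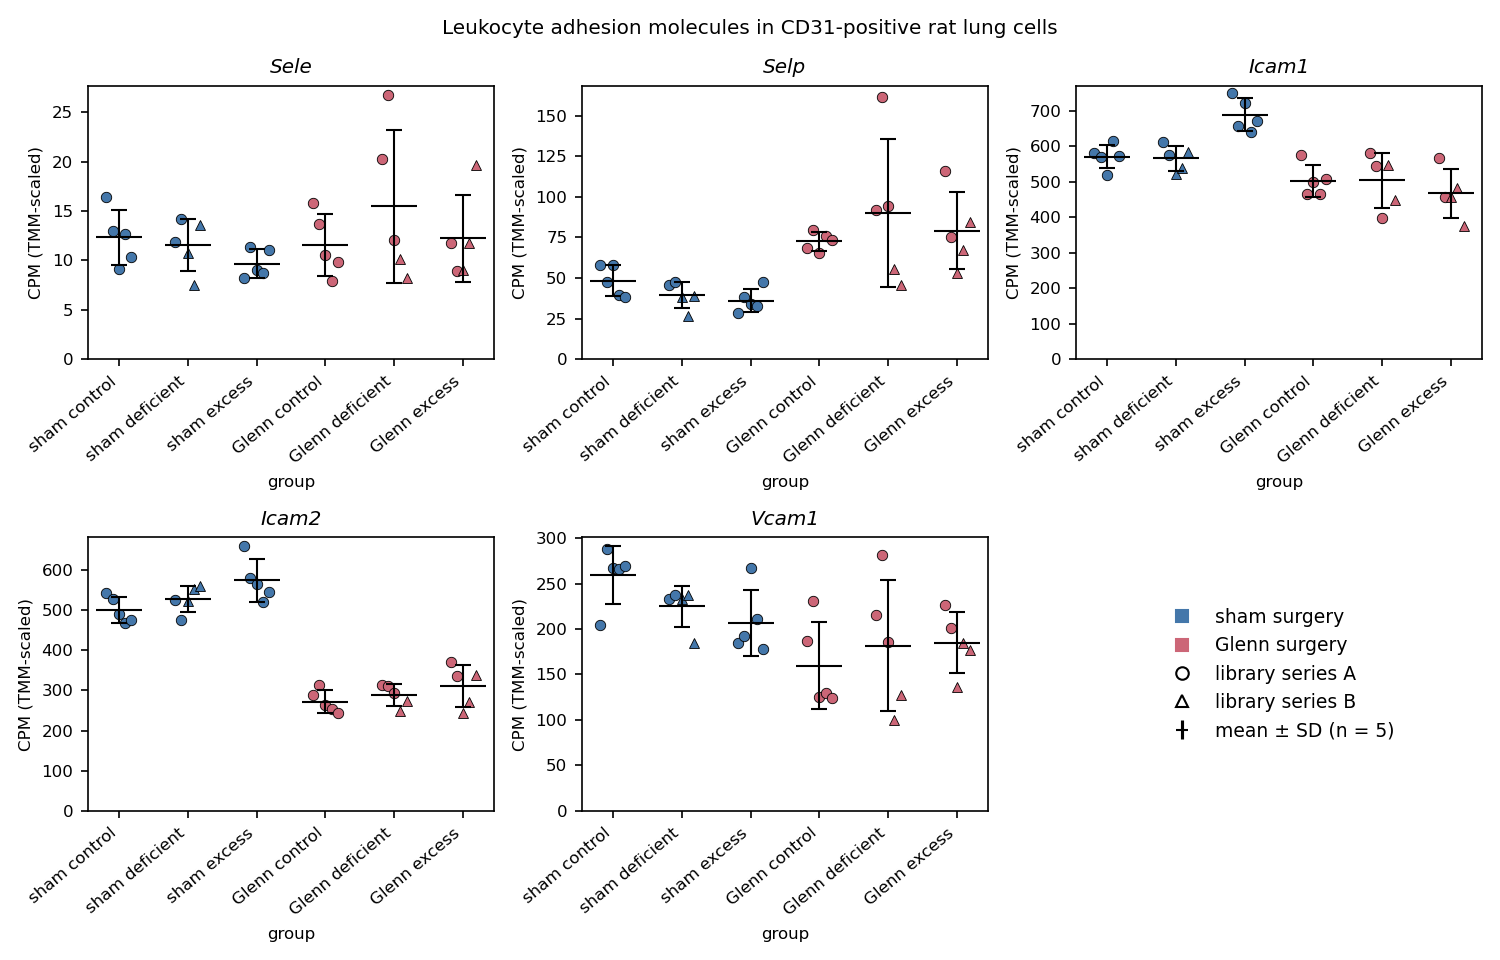
Each point is 1 library's level in CPM (vertical axes, starting at 0) in the 6 groups of surgery and diet (horizontal axes). Black bars are the mean ± SD of 5 libraries, circles are series A and triangles series B. All Icam2 points after Glenn lie below all sham points, Selp lies higher after Glenn, and Sele overlaps throughout.

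Selp was the selectin that rose. In sham control its libraries stood at 58.3, 47.7, 58.3, 39.6 and 38.2 CPM, in sham deficient at 45.5, 47.3, 38.1, 26.8 and 38.9 CPM, and in sham excess at 28.5, 38.5, 33.8, 32.5 and 47.5 CPM. In Glenn control they stood at 68.6, 79.9, 65.4, 76.1 and 73.5 CPM, in Glenn deficient at 92.2, 162, 94.6, 55.4 and 45.5 CPM, and in Glenn excess at 116, 75.4, 52.9, 67.3 and 84.5 CPM. Of the 15 Glenn libraries, 12 lay above the highest sham library and 3 lay within the sham range. The mean was 41.3 ± 9.47 CPM after sham and 80.6 ± 28.6 CPM after Glenn (SD, n = 15 each). The log2 change was 1.03 (SE 0.11, adjusted p = 9.94e-09, edgeR).

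The Selp difference stood in each diet. It was 0.59 on the log2 scale on the control diet (SE 0.19, adjusted p = 0.0206), 0.97 on the deficient diet (SE 0.19, adjusted p = 0.000381) and 1.54 on the excess diet (SE 0.21, adjusted p = 3.56e-06, edgeR). On the control and excess diets the Glenn and sham libraries did not overlap. The test of surgery by diet gave an unadjusted p of 0.0086 and an adjusted p of 0.712, so these sizes were not shown to differ. Their order also depends on the series term, since sham excess holds no series B library: with no series term the values on the deficient and excess diets were 1.19 and 1.14. The control-diet call is the least firm: it was lost without sham control replicate 4 (0.52) or without replicate 5 (0.51), and with no series term (0.59, adjusted p = 0.0832). Among RT1-CE16-low libraries the control-diet value was 0.44 (adjusted p = 0.345) and among high libraries 0.73 (adjusted p = 0.0414).

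Selp also differed between the series. Every series B library was RT1-CE16-high, so the series and that level cannot be told apart among them. Series B libraries were lower by a log2 difference of -0.70 (SE 0.16, adjusted p = 0.0200), in a comparison that called 1.64% of all genes and no other of these 5. In Glenn deficient, the 2 series B libraries, 55.4 and 45.5 CPM, were the lowest of the group. Within series A the Selp change over diets was 1.12 (adjusted p = 6.29e-07), and within series B, which holds both operations on the deficient diet only, it was 0.55 (adjusted p = 0.128).

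Sele, the other selectin, was low and variable. Sham control libraries stood at 16.4, 13.0, 9.18, 12.7 and 10.4 CPM and Glenn control at 15.8, 13.7, 10.5, 7.91 and 9.85 CPM. Sham deficient libraries stood at 11.8, 14.2, 10.8, 7.48 and 13.6 CPM, and Glenn deficient at 20.3, 26.7, 12.1, 10.1 and 8.21 CPM. Sham excess libraries stood at 8.24, 11.4, 9.07, 8.69 and 11.03 CPM, and Glenn excess at 11.7, 8.89, 9.002, 11.8 and 19.7 CPM. Groups overlapped everywhere: 12 of 15 Glenn libraries lay within the sham range and 3 above it. The mean was 11.2 ± 2.48 CPM after sham and 13.1 ± 5.37 CPM after Glenn (SD, n = 15 each), and the log2 change of 0.26 had a 95% interval from -0.05 to 0.57 (adjusted p = 0.159, edgeR). Per diet the values were -0.09 (adjusted p = 0.845), 0.32 (adjusted p = 0.418) and 0.56 (adjusted p = 0.199) for control, deficient and excess. Counts of Sele ran from 189 to 1150 per library.

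Icam2, the constitutive ligand of the beta-2 integrins, separated the operations completely. Sham control libraries stood at 543, 528, 492, 468 and 476 CPM and Glenn control at 288, 313, 265, 253 and 243 CPM. Sham deficient libraries stood at 525, 477, 524, 553 and 561 CPM, and Glenn deficient at 313, 312, 293, 248 and 273 CPM. Sham excess libraries stood at 661, 582, 566, 521 and 545 CPM, and Glenn excess at 370, 335, 244, 272 and 339 CPM. All 15 Glenn libraries lay below all 15 sham libraries, which held in one direction or the other for 5.83% of all genes tested. The mean was 535 ± 49.2 CPM after sham and 291 ± 38.9 CPM after Glenn (SD, n = 15 each), and the fitted difference was -0.86 on the log2 scale (SE 0.05, adjusted p = 5.72e-14, edgeR), lower than the change of all but 4.21% of genes.

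The Icam2 difference was called in each diet. It was -0.88 on the control diet (adjusted p = 1.53e-08), -0.91 on the deficient diet (adjusted p = 1.24e-08) and -0.80 on the excess diet (adjusted p = 6.94e-07), with 95% intervals of -1.07 to -0.69, -1.10 to -0.72 and -1.01 to -0.59. The test of surgery by diet gave an unadjusted p of 0.741. Within series A the value over diets was -0.76 (adjusted p = 7.33e-10), and on the deficient diet in series B it was -1.07 (adjusted p = 0.000559). The counts of Icam2 were fractional in 30 of 30 libraries, as happens where Salmon divides reads between genes, so its level rests in part on that division, whose effect was not tested. Vcam1 had a fractional count in 1 library, and the other 3 genes in none.

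Icam1, the cytokine-inducible ligand of the same integrins, was lower after Glenn over the diets and, taken singly, on the excess diet, but neither call stood once mural and fibroblast marker scores were added to the fit. Sham control libraries stood at 580, 570, 520, 614 and 572 CPM and Glenn control at 575, 466, 500, 466 and 508 CPM. Sham deficient libraries stood at 613, 575, 523, 539 and 583 CPM, and Glenn deficient at 581, 544, 397, 549 and 448 CPM. Sham excess libraries stood at 751, 657, 724, 641 and 672 CPM, and Glenn excess at 568, 456, 456, 481 and 374 CPM. The mean was 609 ± 68.9 CPM after sham and 491 ± 63.1 CPM after Glenn (SD, n = 15 each), and 10 of 15 Glenn libraries lay below the lowest sham library. The log2 change over diets was -0.29 (SE 0.05, adjusted p = 7.04e-05, edgeR). It was -0.49 on the excess diet (SE 0.10, adjusted p = 0.000829), without overlap, while the values of -0.18 on the control diet (adjusted p = 0.160) and -0.19 on the deficient diet (adjusted p = 0.138) did not pass. The test of surgery by diet did not separate these 3 values (unadjusted p = 0.0719, adjusted p = 0.923). With the mural and fibroblast scores Icam1 was 0.06 over diets (adjusted p = 0.801) and -0.08 on the excess diet (adjusted p = 0.834). Mural marker sums did not overlap between the operations, so that fit can hardly tell the scores and the operation apart.

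Vcam1, the ligand of the alpha-4 integrins, fell unevenly. Sham control libraries stood at 205, 289, 268, 266 and 270 CPM and Glenn control at 187, 231, 126, 130 and 124 CPM. Sham deficient libraries stood at 233, 237, 233, 238 and 185 CPM, and Glenn deficient at 216, 281, 186, 99.96 and 127 CPM. Sham excess libraries stood at 184, 192, 267, 211 and 178 CPM, and Glenn excess at 227, 201, 136, 185 and 177 CPM. Of the 15 Glenn libraries, 7 lay below the lowest sham library and 8 within the sham range, so the operations overlapped. The mean was 230 ± 36.4 CPM after sham and 176 ± 50.9 CPM after Glenn (SD, n = 15 each), and the fitted difference was -0.35 on the log2 scale (SE 0.10, adjusted p = 0.00628, edgeR).

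By diet the Vcam1 change was -0.70 on the control diet (SE 0.18, adjusted p = 0.00401), -0.47 on the deficient diet (SE 0.18, adjusted p = 0.0579) and 0.12 on the excess diet (SE 0.20, adjusted p = 0.717). On the excess diet the Glenn mean, 185 CPM, lay below the sham mean, 207 CPM, and the fitted sign was not settled: 11 of 14 alternative fits kept it (0.04 to 0.13), while the value was -0.16 with no series term and -0.07 with leukocyte and platelet or with alveolar marker scores added. The test of surgery by diet gave an unadjusted p of 0.0159 and an adjusted p of 0.758. Within series A the change over diets was -0.22 (adjusted p = 0.159), and on the deficient diet it was -0.04 in series A (adjusted p = 0.935) and -0.95 in series B (adjusted p = 0.00358).

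Counted by diet, 3 of the 5 genes were called on the control diet, against 24.9% of all genes tested, 2 on the deficient diet, against 27.4%, and 3 on the excess diet, against 21.9%. Libraries did not overlap for 2 of 5 genes on the control diet (Selp and Icam2), for 1 on the deficient diet (Icam2) and for 3 on the excess diet (Selp, Icam1 and Icam2), against 17.2%, 19.6% and 16.3% of all genes. Only Selp and Icam2 were called in all 3 diets. The 3 diet values of a gene come from separate libraries, but the fit shares its spread and series term among them.

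**Figure D2:**
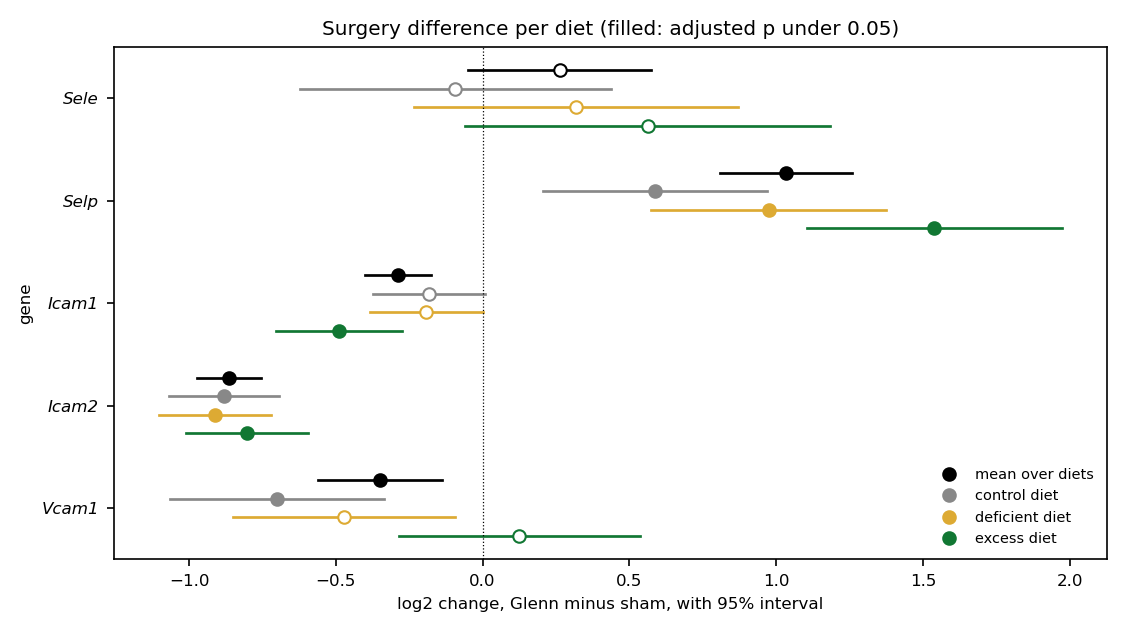
Points are the log2 change from sham to Glenn (horizontal axis) for each gene (vertical axis), as the mean over diets and per diet, with 95% intervals as lines. Filled points have an adjusted p under 0.05. Selp lies to the right of 0 and Icam2 to the left in all 4 comparisons, Vcam1 runs from -0.70 on the control diet to 0.12 on the excess diet, and the Sele intervals all include 0.

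The levels were also set out by RT1-CE16 level, where Vcam1 had the widest gap in its surgery change of the 5 genes. Among low libraries it averaged 222 ± 37.9 CPM after sham (SD, n = 9) and 207 ± 44.8 CPM after Glenn (SD, n = 8), and the ranges overlapped. Among high libraries it averaged 243 ± 32.9 CPM after sham (SD, n = 6) and 140 ± 30.4 CPM after Glenn (SD, n = 7), where the highest Glenn library, at 185 CPM, only just exceeded the lowest sham library, also 185 CPM after rounding. The change over diets in low libraries alone was -0.14 (adjusted p = 0.466), and on the control diet it was -0.43 there, which did not pass. In high libraries it was -1.07 on the control diet (adjusted p = 0.00018) and -0.95 on the deficient diet (adjusted p = 0.000461). All sham excess libraries were low, so only the low libraries compare the operations on the excess diet, and the levels are not balanced by diet. On the deficient diet the high libraries are those of series B. The difference of the surgery change, high minus low, was -0.63 (SE 0.21), with an unadjusted p of 0.00495 and an adjusted p of 0.286 in edgeR, so it did not pass. That fit held a term for the RT1-CE16 level but none for the series. In that test 0 of 16171 genes were called (0% of all tested), with 1553 at an unadjusted p under 0.05, and no other tool was run for it. For Icam2 the same difference was -0.23 (unadjusted p = 0.0313, adjusted p = 0.454), and for Selp, Icam1 and Sele it was -0.20, -0.05 and -0.07. The RT1-CE16 level and the series cannot be told apart among the series B libraries, which were all high, and these comparisons by level were chosen after the values had been seen.

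**Figure D3:**
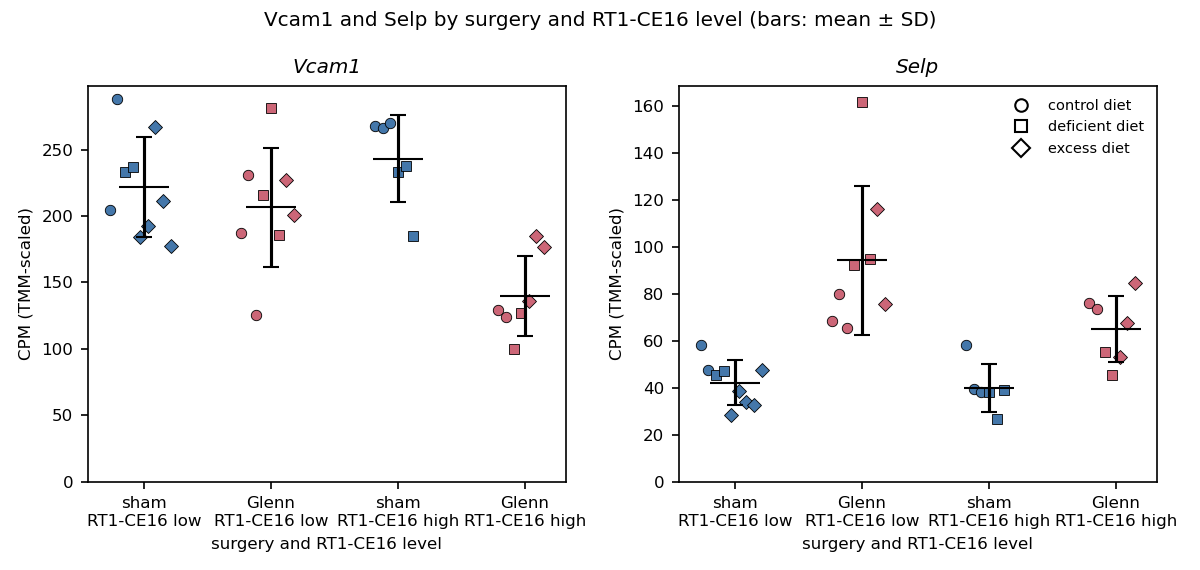
Points are libraries, with the level of Vcam1 (left) and Selp (right) in CPM on vertical axes that start at 0, split by operation and RT1-CE16 level on the horizontal axis. Symbols mark the diet and bars the mean ± SD, and all sham excess libraries are low. Vcam1 averages 222 and 207 CPM in the low libraries after sham and Glenn, and 243 and 140 CPM in the high ones, while Selp is higher after Glenn at both levels, with 42.2 and 94.2 CPM in the low and 39.97 and 65.0 CPM in the high libraries.

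Diet alone moved none of the 5 genes past the threshold. In sham rats, 0 of 5 were called in each comparison: deficient against control (0% of all genes called), excess against control (0.241%) and excess against deficient (0.0124%). After Glenn, 0 of 5 were called for deficient against control (0.00618% of all genes), excess against control (1.47%) and excess against deficient (0%), and the test of surgery by diet called 0 of 5 as well (0.00618%). By edgeR, 0, 3 and 2 of the 5 genes had an unadjusted p under 0.05 in the 3 sham comparisons, 1, 3 and 0 in the 3 Glenn comparisons, and 2 in the test of surgery by diet. DESeq2 and limma voom also called 0 of the 5 in the 6 diet comparisons.

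Icam1 came nearest to a diet difference in sham rats. All 5 sham excess libraries, 641 to 751 CPM, lay above all sham control libraries, 520 to 614 CPM, and all sham deficient libraries, 523 to 613 CPM. The log2 differences were 0.27 against control (95% interval 0.08 to 0.46, adjusted p = 0.242) and 0.21 against deficient (95% interval -0.004 to 0.42, adjusted p = 0.958, edgeR). Sham excess held no RT1-CE16-high library. Over 14 alternative fits, some with a term for that level, the value against control ran from 0.19 to 0.31, never called. Complete separation in these comparisons was found for 2.19% and 1.72% of all genes. After Glenn the excess group had the lowest Icam1 mean of the 6 groups, 467 ± 69.5 CPM (SD, n = 5), and the sham excess group the highest, 689 ± 46.6 CPM. For Selp the fitted value for excess against control was -0.42 after sham (95% interval -0.81 to -0.04) and 0.53 after Glenn (95% interval 0.10 to 0.96), neither called after adjustment. The latter was 0.13 with no series term and -0.13 among RT1-CE16-high libraries.

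Ordered by group mean, Selp ran from sham excess (36.1 CPM) through sham deficient (39.3 CPM), sham control (48.4 CPM), Glenn control (72.7 CPM) and Glenn excess (79.3 CPM) to Glenn deficient (89.9 CPM), and only sham control and Glenn control were neighbours whose libraries did not overlap. For Icam2 the order was Glenn control (272 CPM), Glenn deficient (288 CPM), Glenn excess (312 CPM), sham control (501 CPM), sham deficient (528 CPM) and sham excess (575 CPM), with its only gap between Glenn excess and sham control. Icam1 ran from Glenn excess through Glenn control (503 CPM), Glenn deficient (504 CPM), sham deficient (566 CPM) and sham control (571 CPM) to sham excess, which alone was clear of its neighbour. Vcam1 ran from Glenn control (159 CPM) through Glenn deficient (182 CPM), Glenn excess (185 CPM), sham excess (207 CPM) and sham deficient (225 CPM) to sham control (259 CPM), and every neighbouring pair overlapped. Sele ran from sham excess (9.68 CPM) through Glenn control (11.6 CPM), sham deficient (11.6 CPM), Glenn excess (12.2 CPM) and sham control (12.3 CPM) to Glenn deficient (15.5 CPM), again with every neighbouring pair overlapping.

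Within groups Sele and Selp were correlated, but the size of the relation depended on the series. After each group's mean was removed from log2(CPM + 1), Sele and Selp correlated with r = 0.68 over 30 libraries (permutation within groups, two-sided p = 0.00244, adjusted over 10 pairs 0.0191) and rho = 0.55 (permutation p = 0.00913, adjusted 0.0575). Without the 2 libraries farthest from the median r was 0.59. With the means of group and series removed and permutation within both, chosen after seeing the data, r was 0.62 (permutation p = 0.00573, adjusted 0.0573) and rho 0.65 (permutation p = 0.00307, adjusted 0.0307). Within the 22 libraries of series A r was 0.48 (permutation p = 0.0906, adjusted 0.226). Glenn deficient replicate 2 was the highest library of the study for both genes, at 26.7 CPM of Sele and 162 CPM of Selp. Icam2 and Vcam1 were the other pair whose r passed, at 0.55 (permutation p = 0.00383, adjusted 0.0191), with rho = 0.52 (permutation p = 0.0115, adjusted 0.0575), and r = 0.47 without the 2 farthest libraries. It did not pass with the series removed (r = 0.39, permutation p = 0.089, adjusted 0.297) or in series A (r = 0.38, permutation p = 0.177, adjusted 0.296). The other 8 pairs did not pass, among them Selp and Vcam1 (r = 0.56, permutation p = 0.021, adjusted 0.0699). The SD within groups on the log2 scale was 0.41 for Sele, 0.40 for Selp, 0.34 for Vcam1 and 0.15 each for Icam1 and Icam2.

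The genes that varied most like each molecule within groups were sought among 12720 genes with a symbol and a mean of at least 1 CPM, over 30 libraries that share depth and cell make-up between genes. For Icam2 they were Emp3 (r = 0.91), Ifitm2 (r = 0.91) and Smco4 (r = 0.87). For Vcam1 they were Htr2b, a serotonin receptor (r = 0.80), Ntn1, which encodes netrin-1 (r = 0.78), and Ackr1, a chemokine-binding protein of venules (r = 0.77). Sele varied most like Rpsa (r = 0.80), Cemip (r = 0.76) and Mylk (r = 0.75), and Selp like RT1-A1, RT1-T24-1 and Hdac3 (r = 0.75 each). In series A alone the 3 values for Selp were 0.56, 0.58 and 0.72, so that those of the RT1 genes depend on the series, while for the other 4 molecules they ran from 0.58 to 0.90. Icam1 had Nuak2 (r = 0.74), Fam174b (r = 0.73) and Arhgef12 (r = 0.68). RT1 genes are near-identical copies between which reads can be split, so their values are uncertain.

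The genes around these molecules changed in both directions. Each list below is to be read against the same comparison over all 16171 genes, of which 48.2% were called, 3790 higher and 4002 lower, with a median log2 change of -0.01. Of 18 other adhesion and passage molecules tested, 6 were higher after Glenn, 6 lower and 6 not called, which makes 66.7% called against 48.2%, with a median of 0.14. Cd34, a sialomucin that can carry selectin ligands, rose from 3.71 ± 0.90 to 14.0 ± 3.20 CPM (SD, n = 15 each, log2 1.91, adjusted p = 1.27e-14). Nectin2 and Pvr, nectin-family adhesion proteins, rose by 0.85 and 0.95 on the log2 scale, and Esam, an endothelial tight-junction adhesion molecule, fell by 0.75.

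Of 11 tested genes for counter-receptors that leukocytes use, 1 was higher, 2 were lower and 8 were not called (27.3% called against 48.2% of all genes, median -0.42). Which cells made these transcripts was not tested, and the pan-leukocyte gene Ptprc had a median of 2.39 CPM. Itga4, the alpha-4 integrin chain that binds Vcam1, rose from 5.82 ± 1.77 to 19.0 ± 4.79 CPM (SD, n = 15 each, log2 1.65, adjusted p = 7.00e-11). Cd44, a hyaluronan receptor that can bind E-selectin, fell by 0.42, and Glg1, another E-selectin ligand, fell by 0.13. Itgb2, the beta-2 integrin chain of leukocytes that binds Icam1 and Icam2, averaged 3.04 ± 3.42 CPM after sham and 2.05 ± 1.45 CPM after Glenn (adjusted p = 0.267), and Selplg, the P-selectin ligand, 0.87 ± 0.94 and 0.49 ± 0.29 CPM (adjusted p = 0.133).

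Among the genes that receive and carry the inducing signals, 4 of 12 cytokine receptors were higher and 3 lower (58.3% called against 48.2% of all genes, median -0.10). Il6st, the shared receptor chain of the IL-6 family, rose from 1069 ± 162 to 1748 ± 265 CPM (SD, n = 15 each, adjusted p = 1.82e-10), and Il13ra1 rose by 0.20 on the log2 scale. Il4r and the IL-1 receptor Il1r1 fell by 0.54 and 0.44. Of 14 NF-kB pathway genes 6 were higher and 4 lower (71.4% called against 48.2%, median 0.05): Relb and Nfkb2, the subunits of the non-canonical branch, rose by 0.51 and 0.40 and the inhibitor Nfkbie by 0.43, while the kinase Ikbkb fell by 0.28.

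Of 21 other genes that cytokines induce in endothelium, 10 were higher after Glenn, 3 lower and 8 not called (61.9% called against 48.2% of all genes), with a median of 0.39. Il6 rose from 1.18 ± 0.50 to 4.45 ± 1.20 CPM and the monocyte chemokine gene Ccl2 from 8.61 ± 2.68 to 22.6 ± 5.25 CPM (SD, n = 15 each, log2 1.91 and 1.38, adjusted p = 1.13e-09 and 6.58e-09). Ptgs2, which encodes cyclooxygenase-2, rose by 1.05 and Tnip1, an inhibitor of NF-kB signalling, by 0.39. Beside these, Selp was higher, Icam1 and Vcam1 were lower and Sele was not called.

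Of 14 transcription factors that act on such genes, 4 were higher and 6 lower (71.4% called against 48.2% of all genes, median -0.09). Klf2, the flow-induced factor of quiescent endothelium, averaged 1474 ± 283 CPM after sham and 656 ± 103 CPM after Glenn (SD over 15 libraries each) and fell by 1.16 on the log2 scale (adjusted p = 3.88e-13), and Gata2 fell by 0.98 on the log2 scale. Erg, an endothelial ETS factor, rose by 0.55 and Fos by 0.50.

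Selp shares its storage granule with Vwf, whose transcript was lower after Glenn over the diets. Vwf, the main cargo of Weibel-Palade bodies, averaged 1559 ± 239 CPM after sham and 978 ± 289 CPM after Glenn (SD over 15 libraries each) and fell by 0.64 on the log2 scale (adjusted p = 2.92e-06), with values of -1.08, -0.72 and -0.12 on the control, deficient and excess diets beside 0.59, 0.97 and 1.54 for Selp. Of 13 genes of these granules 2 were higher, 5 lower and 6 not called (53.8% called against 48.2% of all genes, median -0.05). Hps6, which takes part in granule formation, fell by 0.83, the membrane protein Cd63 rose by 0.38 and the vesicle protein Vamp3 fell by 0.23. Of 14 cytoplasmic partners and sheddases, 8 were higher and 4 lower (85.7% called against 48.2% of all genes, median 0.17). Among these the actin linkers Flna, Actn1 and Actn4 rose by 1.06, 0.80 and 0.35, and Adam17, a protease that sheds adhesion molecules from the cell surface, fell by 0.44.

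**Figure D4:**
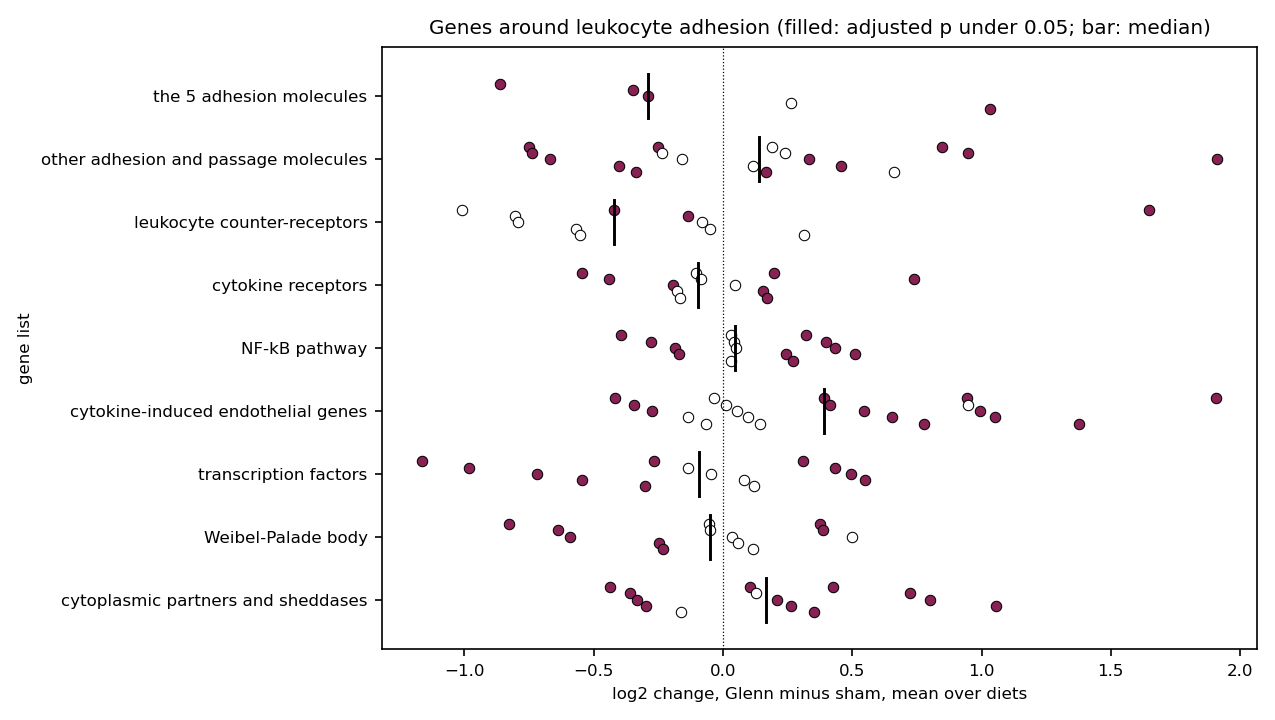
Each point is 1 gene's log2 change from sham to Glenn, averaged over diets (horizontal axis), by gene list (vertical axis). Filled points have an adjusted p under 0.05 and bars are list medians. The 5 adhesion molecules spread from -0.86 to 1.03, and of the 8 other lists the cytokine-induced genes have the highest median, 0.39.

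Markers of other cells moved with the operation, and their counts below too stand against 48.2% of all genes called. All 8 mural (pericyte and smooth muscle) markers were higher after Glenn, with summed levels of 161 to 328 CPM after sham and 466 to 1687 CPM after Glenn that did not overlap, and 6 of 8 fibroblast markers were higher (1058 to 2775 CPM and 1488 to 3988 CPM). In a fit with scores of both lists added, Icam2 was -0.86 (adjusted p = 4.42e-05) and Selp 0.87 (adjusted p = 0.0321), but Vcam1 was -0.39 (adjusted p = 0.396), the Icam1 calls were lost as given above, and only 1872 genes were called in place of 7792.

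Of 8 platelet markers 7 fell and none rose over the diets. Their sums were 31.8 to 119 CPM after sham and 27.1 to 107 CPM after Glenn. Single diets called 0 (control), 2 (deficient) and 5 (excess) of the 8 lower, against 24.9%, 27.4% and 21.9% of all genes called. Platelets also carry Selp, but which cells made the Selp transcript was not tested. Of 12 leukocyte markers 8 were tested, 1 rising and 2 falling, with sums of 13035 to 24468 CPM after sham and 8085 to 18887 CPM after Glenn. Those sums came mostly from Lyz2 (median 15010 CPM), which type 2 alveolar cells also express, whereas Ptprc, the pan-leukocyte gene, had a median of 2.39 CPM and Cd3e, Marco, S100a8 and Cd52 were at 0 in 13, 26, 12 and 28 of 30 libraries. With leukocyte and platelet scores added, Selp was 0.92 (adjusted p = 5.09e-05) and Vcam1 -0.50 (adjusted p = 0.0112).

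Of the type 1 alveolar markers 5 of 8 rose and 3 fell, with sums of 1220 to 2115 CPM after sham and 1194 to 3044 CPM after Glenn, and all 8 type 2 markers fell (37246 to 63731 CPM and 26309 to 59814 CPM). With both alveolar scores added Icam1 was -0.35 (adjusted p = 0.000906). None of the 5 mesothelial markers tested changed by edgeR, with sums of 256 to 617 CPM after sham and 177 to 725 CPM after Glenn.

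Of 8 pan-endothelial markers 4 rose and 3 fell, with sums of 6109 to 7691 CPM after sham and 4897 to 7172 CPM after Glenn. Among endothelial kinds, with the same 48.2% of all genes called, all 7 lymphatic markers rose (1014 to 1949 CPM after sham, 2341 to 4994 CPM after Glenn). Of 7 artery markers 6 rose and 1 fell (843 to 1121 CPM, then 927 to 1848 CPM). Of 7 vein markers 1 rose and 4 fell (846 to 1211 CPM, then 456 to 722 CPM). Of 6 general capillary markers 4 fell and none rose (5669 to 8677 CPM, then 2417 to 5543 CPM), and of 6 aerocyte markers 4 fell and 1 rose (1430 to 2320 CPM, then 853 to 1250 CPM). The part of these endothelial shifts in the adhesion molecules' levels was not tested.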

How the data were processed

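Total RNA of CD31+ rat lung cells was amplified with a SMART-Seq kit, per the labels' protocols. The submitters' processing notes name FastQC, Trim Galore, Picard, STAR and Salmon, with the builds mRatBN7.2 and rn7, while versions and the annotation release are not given in the sources used here. The deposited table holds the authors' estimated counts per gene, not normalized, of which 13.6% were not whole numbers. They were rounded here and filtered (filterByExpr, minimum count 10, minimum total 15), which left 16171 of 30562 genes. Because strand use is not given, reads of antisense partners cannot be told apart.

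Tests used edgeR 4.0.16 (R 4.3.3): TMM scaling, robust quasi-likelihood fits over all 30 libraries with 6 group means and a series term (library numbers below or above 500), and Benjamini-Hochberg adjustment over all genes tested, with calls at an adjusted p under 0.05. The fit of surgery by RT1-CE16 level had a term for that level and no series term. Intervals are at 95% and CPM are TMM-scaled. Pairs of genes were compared on log2(CPM + 1) with 100000 permutations within groups. The alternatives used limma 3.58.1 and DESeq2 1.42.0, other terms, filters and subsets of libraries, and figures were drawn with matplotlib 3.10.9. The fitting script was tested on simulated data. No pair of libraries within a group looked like repeats of one library (chi-square per degree of freedom of at least 21.2 in 60 pairs).

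The 5 genes, gene lists and marker lists were chosen with earlier results of these data known. Besides the 5, the text names up to 4 genes per list with the smallest adjusted p over diets, and the 3 genes most alike to each of the 5. Itgb2, Selplg, Pecam1, Cdh5, Lyz2, Ptprc, Cd3e, Marco, S100a8 and Cd52 fall outside this rule and were named after their values were seen.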

Additional observations from a re-analysis of the deposited data

Results flagged for a closer look

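In 3 of 30 sets of 5 libraries (5 genes in 6 groups), 1 library stood apart from the other 4 by Dixon's test, where chance gives about 1 in 20, or 1.5 sets. Sele in Glenn excess replicate 5 was high, at 19.7 CPM against 8.89 to 11.8 CPM, a gap of 0.730 of the group's range. Vcam1 in sham control replicate 1 was low, at 205 CPM against 266 to 289 CPM (0.732 of the range). Vcam1 in sham deficient replicate 5 was low, at 185 CPM against 233 to 238 CPM (0.917 of the range). Without Glenn excess replicate 5 the change of Sele on the excess diet was 0.36 and remained uncalled.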

How the results depend on the processing

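Over 13 alternative fits, the mean changes of Selp (0.87 to 1.12) and Icam2 (-0.93 to -0.76) stayed past the threshold in each. With no series term Selp on the control diet was 0.59, past the threshold no longer. With a term for RT1-CE16 (high or low) replacing the series term it was 0.52, and with that term and sex 0.53. In series A alone the mean Vcam1 change was -0.22. On the deficient diet Vcam1 passed with DESeq2 (-0.46), limma voom (-0.54) and leukocyte and platelet scores (-0.62). With mural and fibroblast scores 1872 genes were called over diets, with 2 of the 5 genes over diets, 1 on the control and 1 on the deficient diet. Icam1 then took the other sign over diets (0.062) and was -0.083 on the excess diet, Vcam1 was -0.39 over diets and -0.73 on the control diet, and Selp 0.45 on the control and 0.81 on the deficient diet; the cause was not tested. Chosen after seeing the data, RT1-CE16-low libraries alone gave -0.14 for Vcam1 over diets and -0.43 on the control diet, 0.44 for Selp there, and 1 of the 5 called there. On the deficient diet the RT1-CE16-high libraries are those of series B. Fits of either subset thus compare the same libraries, and both gave 0.55 for Selp and -0.95 for Vcam1. These subsets hold fewer libraries.

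Leaving out each library in turn gave 0.51 to 0.68 for Selp on the control diet (call lost without sham control replicate 4 or 5) and -0.61 to -0.32 for Vcam1 on the deficient diet (call gained without Glenn control replicate 2, sham deficient replicates 1 or 2, or Glenn deficient replicate 2), with 2 to 3 of the 5 called on either diet. Whether the replicate numbers pair libraries was not settled. Correlations of same-numbered libraries ran from -0.28 to 0.26, with 8 of 15 over 0.1. Yet replicates 1 and 2 were RT1-CE16-low in all 6 groups. Ddx3y stood at 86.7 to 94.6 CPM in every replicate 1 and at 0 to 0.08 CPM in every replicate 2. A replicate block gave 1.03 for Selp, -0.88 for Icam2, -0.31 for Icam1, -0.38 for Vcam1 and 0.20 for Sele over diets and changed none of these calls, with 7787 genes called in place of 7792.

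No diet value of the 5 genes passed in 1345 refits, of which 65 had the other sign. Counts of all genes called per diet contrast were small and unsteady. For excess against control they ran from 0 (RT1-CE16 level) to 210 (DESeq2) after sham, with 39 in the analysis reported, and from 10 (only the groups compared) to 524 (DESeq2) after Glenn, with 237. Leaving out 1 library moved these counts to between 0 (without sham control replicate 3, sham excess replicate 1 or sham excess replicate 2) and 79 (without sham control replicate 1) after sham, and between 2 (without Glenn excess replicate 1) and 557 (without Glenn control replicate 1) after Glenn. DESeq2 called 26 for deficient against control after sham and 18 for excess against deficient after Glenn, where edgeR called 0 (844 and 837 at an unadjusted p under 0.05). With mural and fibroblast scores the surgery counts were 1959, 1194 and 899 on the control, deficient and excess diets, against 4023, 4423 and 3549, and RT1-CE16-low libraries alone gave 1563, 2398 and 2152. Depth bears most on Sele, whose counts ran from 189 to 1150 per library, against 1047 or more for the other 4 genes.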
